A study of Mus musculus with 8 samples.

Results

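Classical cadherins are transmembrane proteins that hold neighbouring cells together through calcium-dependent binding of their extracellular domains. Their cytoplasmic tails bind beta-catenin or plakoglobin, which recruit alpha-catenin and through it the actin cytoskeleton, while p120-catenin binds closer to the membrane and keeps the cadherin at the cell surface. E-cadherin marks epithelium, including pancreatic ducts, and a switch from E-cadherin to N-cadherin is a common description of carcinoma cells that take on mesenchymal features. Beta-catenin also has a second pool outside the junction, where it serves the Wnt pathway.

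The 9 genes described here are the cadherins Cdh1, Cdh2, Cdh3, Cdh11 and Cdh13, the beta-catenin gene Ctnnb1, its relative Jup (plakoglobin), the alpha-catenin gene Ctnna1 and the p120-catenin gene Ctnnd1. They were chosen by symbol out of 24421 rows of a count table, and 8 of the 9 were among the 11797 genes with enough reads to be tested. The libraries come from KPCY cells, a line of mouse pancreatic cancer cells labelled male. The 4 miR-27a KD libraries are from cells stably transduced with a lentiviral vector that inhibits miR-27a-3p, and the 4 Scr libraries are from cells transduced with a scrambled sequence. Puromycin at 2 µg/mL selected both groups over 7 days, the medium held 4.5 g/L glucose and 10% serum, and cells were lysed 24 hours after plating, per the labels' protocols. With 1 stable line behind each group, p-values here speak only of variation among its cultures or libraries, and independent transductions were not compared.

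Levels are given as CPM, a gene's count divided by its library's total after TMM scaling and put on the customary per-megaread scale. Library totals were 19165513 to 21735023 counts in miR-27a KD and 20021056 to 23542275 counts in Scr. Scr replicate 2 stood apart, differing from the other Scr libraries by a chi-square of 5.19 to 5.36 per gene. The other 9 within-group pairs gave 1.73 to 2.35. Values without it are therefore given for the members below. The poly(A)-selected libraries hold almost no reads of the Mir27a locus. The Mir27a precursor had 1 count in all, in miR-27a KD replicate 2, and 0 in the other 7 libraries. Precursor counts do not give the level or activity of mature miR-27a-3p, which the vector inhibits. The depth of the knockdown was thus not measured here. All 6 ductal epithelial markers (Krt7, Krt8, Krt18, Krt19, Epcam, Sox9) were tested, and they summed to 10513 to 10837 CPM in miR-27a KD and 9966 to 10971 CPM in Scr. Most of that was keratin, and Epcam was low, at 5.62 ± 1.16 CPM in miR-27a KD and 7.15 ± 1.80 CPM in Scr (SD, n = 4 each). The fibroblast list summed to 0.725 to 1.38 CPM in miR-27a KD and 0.943 to 1.41 CPM in Scr, with Dcn, Lum, Pdgfrb and Col1a2 at 0 counts in all libraries. The endothelial list summed to 0.182 to 0.665 CPM in miR-27a KD and 0.340 to 1.03 CPM in Scr, with Cldn5 at 0. The immune list summed to 2.50 to 4.30 CPM in miR-27a KD and 3.64 to 3.93 CPM in Scr, with Lyz2 and Adgre1 at 0, and the acinar and endocrine list to 1.92 to 2.81 CPM in miR-27a KD and 2.48 to 3.98 CPM in Scr, with Cpa1, Cel, Ins1 and Ins2 at 0.

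Mature miR-27a-3p (chr8:84208727-84208747, plus strand) and its relative miR-27b-3p (chr13:63300760-63300780, plus strand) share a seed, bases 2 to 8, which pairs with target mRNAs. The first is the strand that the vector inhibits, and the second is shown for the shared seed. The sequences are from RefSeq on GRCm38.p6, 5′ to 3′, with the seed in capitals.
miR-27a-3p: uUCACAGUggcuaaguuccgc
miR-27b-3p: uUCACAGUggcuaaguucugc

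The longest annotated 3′ UTR of each member (GENCODE M21, GRCm38) was searched on the transcript strand for the complement of the seed, ACTGTGA (7mer-m8), also as the 8mer ACTGTGAA, which contains it. A 7-base match was also counted as CTGTGAA, a form that overlaps the 8mer. Cdh1 and Cdh3 each held 1 ACTGTGA match, Ctnnd1 held 1 ACTGTGAA match and Cdh11 held 1 ACTGTGAA and 2 CTGTGAA matches. Cdh2, Ctnna1 and Jup did not hold even the 6-base core CTGTGA, while Cdh13 and Ctnnb1 held 1 core match each with no longer form. Ctnnd1 held 3 further core matches with no longer form, and Cdh11 held 1. The matches of 7 or 8 bases in Cdh1, Cdh3 and Ctnnd1, the 3 tested genes that hold one, are shown with their flanks, in the direction of the transcript. The ACTGTGA or ACTGTGAA match is in capitals, and the last A of ACTGTGAA lies outside the seed match.
Cdh1 (chr8:106670045-106670072, plus strand): accacaatcaACTGTGAgaactgttgat
Cdh3 (chr8:106555585-106555612, plus strand): agaaggctggACTGTGAgcctttccgat
Ctnnd1 (chr2:84600347-84600374, minus strand): taccttagtaACTGTGAAagagttcaaa
Matches of 7 or 8 bases are common, since 32.8%, 36.8% and 46.7% of tested genes with UTRs within 25% of the length of those of Cdh1, Cdh3 and Ctnnd1 hold one. The 8-base form, which Ctnnd1 holds, is less common, at 10.7% of the tested genes with UTRs of like length to that of Ctnnd1. A match is a description of the letters and was not tested as a site of binding.

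The 4 tested cadherins were higher in miR-27a KD cells, and the 4 catenin genes differed by 1.12-fold or less. Of the 8 tested genes, 5 rose in miR-27a KD cells (Cdh1, Cdh2, Cdh3, Cdh13 and Ctnnd1), 2 fell (Jup and Ctnna1) and Ctnnb1 did not pass the test, with edgeR's quasi-likelihood test at a Benjamini-Hochberg adjusted p under 0.05 over all tested genes. Across all tested genes 47.9% passed that threshold, 23.8% higher and 24.1% lower, and at mean levels of 50 CPM or more, which 7 of the 8 reach, 58.1% passed. The 4 miR-27a KD libraries did not overlap the 4 Scr libraries for any of the 8, against 42.2% of all tested genes and 52.1% of those at 50 CPM or more. They lay above Scr for 5 and below for 3, where 21.0% and 21.1% of all tested genes did so. The median log2 fold change of the 8 was 0.18, where that of all tested genes was 0.00170. Cdh1, Cdh3 and Cdh13 lie on chromosome 8, where the median was 0.21 and 62.5% of tested genes were called higher. With library scaling set on chromosome 8 genes, Cdh3 and Cdh13 kept their calls and Cdh1 did not (adjusted p = 0.272, same test). In bulk RNA, fewer cells with a transcript and less of it per cell cannot be told apart, and this holds for each value that follows.

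**Figure D1:**
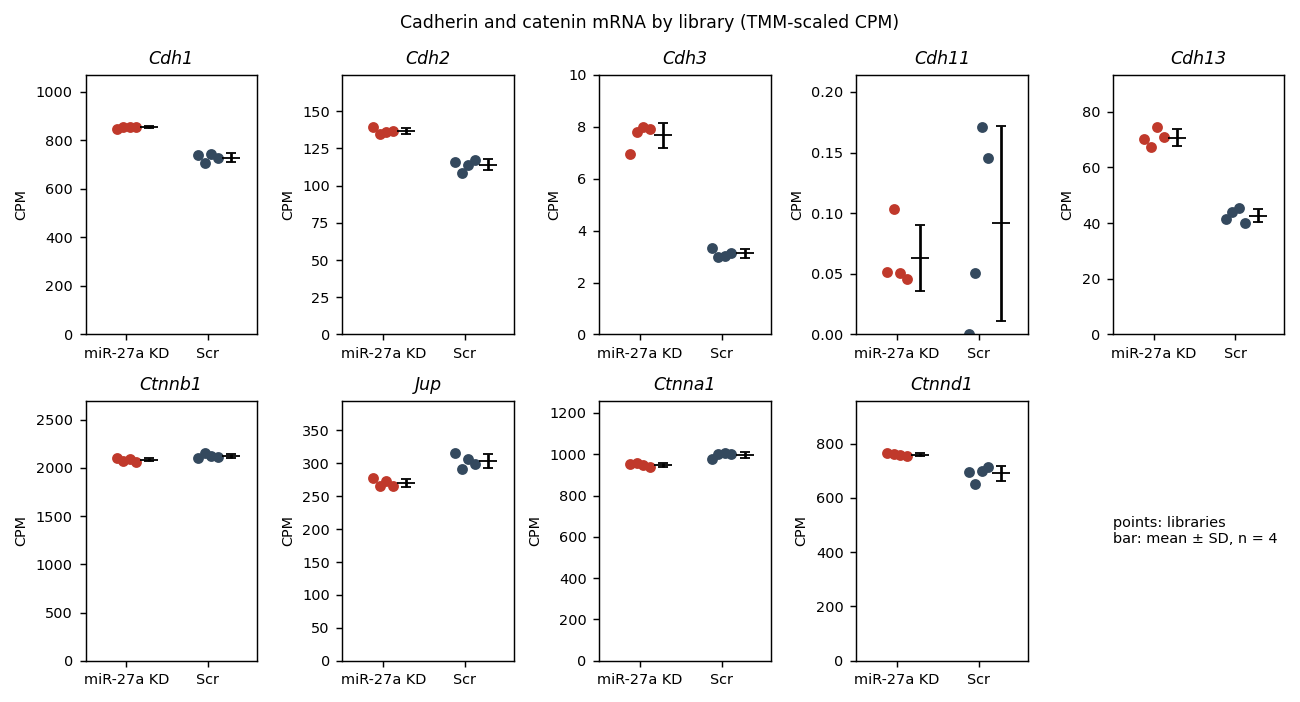
TMM-scaled CPM (vertical axis, from 0) of each member in the 4 miR-27a KD libraries and the 4 Scr libraries, 1 point per library, with the group mean and SD beside it. Cdh1, Cdh2, Cdh3, Cdh13 and Ctnnd1 lie higher in miR-27a KD, Jup and Ctnna1 lie lower, Ctnnb1 differs by 1.02-fold, and Cdh11 rests on 0 to 4 counts per library.

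E-cadherin (Cdh1, chromosome 8, 106603351 to 106670246) had the highest level per transcript length of the 5 cadherins described here. Its level was 847, 855, 857 and 854 CPM in miR-27a KD replicates 1 to 4, against 740.2, 706, 744 and 726 CPM in Scr replicates 1 to 4. Every knockdown library was above every scrambled one, and the lowest Scr value was that of replicate 2, the library that stood apart. The means were 853 ± 4.03 CPM in miR-27a KD and 729 ± 17.3 CPM in Scr (SD, n = 4 each), a 1.17-fold rise (log2 fold change 0.23, SE 0.0213, adjusted p = 1.02e-08). Without Scr replicate 2 the log2 fold change was 0.21 (adjusted p = 1.03e-15). The rise was as large as that of a typical gene of its chromosome. The 646 tested genes of chromosome 8 had a median log2 fold change of 0.21 with quartiles of 0.09 and 0.32, 62.5% of them were called higher and 5.42% lower, and 44.1% had a larger value than Cdh1. With library scaling set on chromosome 8 genes the log2 fold change of Cdh1 was 0.026 and its adjusted p was 0.272, so its change relative to the genes of its own chromosome did not pass the test.

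P-cadherin (Cdh3, chromosome 8, 106510891 to 106557297), a cadherin of basal epithelial layers that is also found in carcinomas, had the largest fold change of the members. It was at 6.96, 7.82, 8.01 and 7.93 CPM in miR-27a KD replicates 1 to 4, against 3.35, 2.97, 3.04 and 3.15 CPM in Scr replicates 1 to 4. The lowest knockdown library was thus more than 3 CPM above the highest scrambled one. The rise to 7.68 ± 0.488 CPM in miR-27a KD, against 3.13 ± 0.165 CPM in Scr (SD, n = 4 each), was 2.45-fold (log2 fold change 1.29, SE 0.112, adjusted p = 2.88e-09). Counts were low, 136 to 174 per library in miR-27a KD and 59 to 71 in Scr. The log2 fold change was 1.27 without Scr replicate 2 and 1.09 with chromosome 8 scaling (adjusted p = 1.60e-08), and 9 of the 646 tested chromosome 8 genes had a larger one. Cdh3 and Cdh1 lie on the same strand with 46.1 kb between them, and their 3′ UTRs both carry the ACTGTGA match shown above.

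Of the 10 tested genes nearest to Cdh3, 5 on either side with Cdh1 among them, 6 were called higher and 0 lower, with a median log2 fold change of 0.22. That is close to chromosome 8 as a whole, where 62.5% were called higher and the median was 0.21. Has3, a hyaluronan synthase past Cdh1, exceeded Cdh3. It stood at 8.82 CPM in miR-27a KD and 2.71 CPM in Scr (log2 fold change 1.69, adjusted p = 2.13e-10). These neighbours, named for their position, also include Zfp90 before Cdh3 at 0.31, Tango6 after Cdh1 at 0.29 and Smpd3 before Zfp90 at −0.08, the last not passing the test (adjusted p = 0.0617).

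T-cadherin (Cdh13, chromosome 8, 118283733 to 119324921) differs from the others in having no cytoplasmic tail, being held in the membrane by a lipid anchor, and so does not bind catenins. It is also known as a receptor of adiponectin. Its level was 70.0, 67.2, 74.7 and 70.8 CPM in miR-27a KD replicates 1 to 4, against 41.3, 43.8, 45.5 and 40.1 CPM in Scr replicates 1 to 4. The groups were far apart relative to their spread. The means were 70.7 ± 3.07 CPM in miR-27a KD and 42.7 ± 2.41 CPM in Scr (SD, n = 4 each), a 1.65-fold rise (log2 fold change 0.73, SE 0.0449, adjusted p = 9.44e-12). The log2 fold change was 0.74 without Scr replicate 2 and 0.53 with chromosome 8 scaling (adjusted p = 1.00e-09), and 24 of the 646 tested chromosome 8 genes exceeded it. The 10 nearest tested genes had a median of 0.20 and at most 0.42, below the value of Cdh13 in each case.

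N-cadherin (Cdh2, chromosome 18, 16588877 to 16809246), the cadherin of neural and mesenchymal cells, rose together with E-cadherin. It was at 139.7, 135, 136 and 137 CPM in miR-27a KD replicates 1 to 4, against 116, 109, 114 and 117 CPM in Scr replicates 1 to 4. Again the groups did not overlap. The rise, to 137 ± 2.12 CPM in miR-27a KD against 114 ± 3.84 CPM in Scr (SD, n = 4 each), was 0.26 on the log2 scale (SE 0.0302, adjusted p = 2.31e-07), and the log2 fold change without Scr replicate 2 was 0.24. Unlike those of chromosome 8, the tested genes of chromosome 18 were slightly lower, with a median of −0.09 over 297 genes. With scaling on chromosome 18 genes, an alternative chosen after seeing the data, the log2 fold change of Cdh2 was 0.35 (adjusted p = 1.79e-09).

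OB-cadherin (Cdh11, chromosome 8, 102632095 to 102785642), a cadherin of osteoblasts and fibroblasts, was at the limit of detection. Its counts were 1, 2, 1 and 1 in miR-27a KD replicates 1 to 4, against 0, 1, 4 and 3 in Scr replicates 1 to 4. The groups overlapped, and no fold change is given. At these depths the 3 counts that a 0 still allows correspond to 0.129 to 0.155 CPM, a limit for counting error only.

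**Figure D2:**
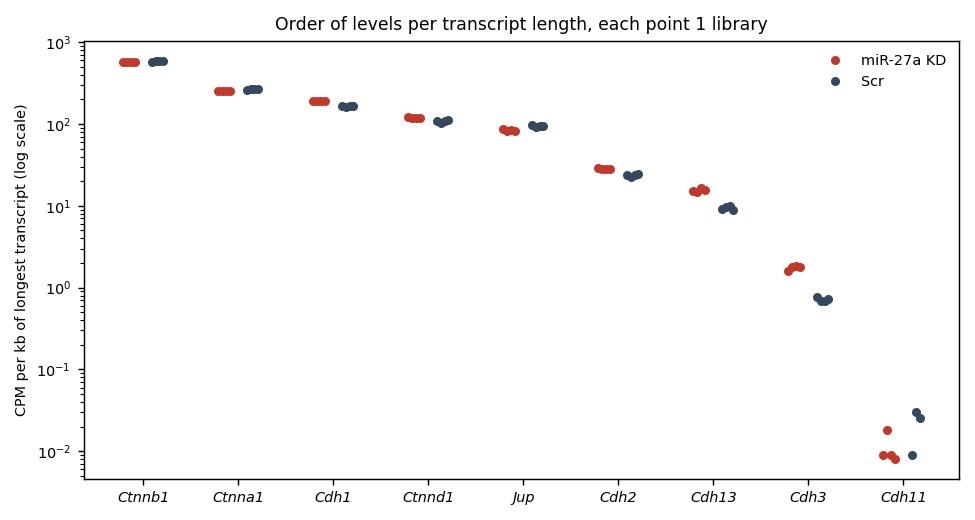
CPM per kb of longest annotated transcript (vertical axis, log scale) for the 9 members, in order of their mean, with 1 point per library of miR-27a KD (left of each pair) and Scr (right). Ctnnb1 and Ctnna1 lead, Cdh1 exceeds Cdh2 by 6.82-fold in miR-27a KD and 6.99-fold in Scr, and Cdh11 lies near the floor, with its Scr library of 0 counts not drawn.

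Levels of different genes were compared as CPM per kb of the longest annotated transcript. On that scale the order of means was the same in both groups. Ctnnb1 led with 576 ± 4.57 CPM per kb in miR-27a KD and 587 ± 6.32 CPM per kb in Scr, followed by Ctnna1 with 254 ± 2.61 CPM per kb in miR-27a KD and 267 ± 3.50 CPM per kb in Scr and Cdh1 with 193 ± 0.910 CPM per kb in miR-27a KD and 165 ± 3.91 CPM per kb in Scr (SD, n = 4 each). Ctnnd1 came next with 119 ± 0.886 CPM per kb in miR-27a KD and 108 ± 4.18 CPM per kb in Scr, then Jup with 84.4 ± 1.79 CPM per kb in miR-27a KD and 94.6 ± 3.27 CPM per kb in Scr. Below the catenins stood Cdh2 with 28.2 ± 0.438 CPM per kb in miR-27a KD and 23.5 ± 0.792 CPM per kb in Scr, Cdh13 with 15.5 ± 0.672 CPM per kb in miR-27a KD and 9.35 ± 0.527 CPM per kb in Scr and Cdh3 with 1.75 ± 0.111 CPM per kb in miR-27a KD and 0.714 ± 0.0376 CPM per kb in Scr. Each step in this order was larger than the SDs of its neighbours. Such levels depend on the length used. Per kb of the union of all annotated exons, chosen after seeing the data, Cdh1 stood above Ctnna1, with Cdh1 at 187 ± 0.882 CPM per kb in miR-27a KD and 159 ± 3.79 CPM per kb in Scr and Ctnna1 at 148 ± 1.51 CPM per kb in miR-27a KD and 155 ± 2.03 CPM per kb in Scr, and the rest of the order was as given.

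Of the summed level of Cdh1, Cdh2, Cdh3 and Cdh11 per kb, E-cadherin made up 86.5% ± 0.183 in miR-27a KD and 87.1% ± 0.280 in Scr (SD, n = 4 each). Its libraries did not overlap, though narrowly, with at most 86.69% in miR-27a KD and at least 86.76% in Scr. N-cadherin made up 12.7% ± 0.227 in miR-27a KD and 12.5% ± 0.271 in Scr, and the libraries overlapped. The rise of both in nearly the same proportion left the Cdh1 to Cdh2 ratio at 6.82 ± 0.135 in miR-27a KD and 6.99 ± 0.172 in Scr, again overlapping. With the union of exons as length that ratio ran from 10.7 to 11.2 over the miR-27a KD libraries and from 10.9 to 11.5 over the Scr libraries, which also overlapped. P-cadherin held 0.787% ± 0.0479 in miR-27a KD and 0.378% ± 0.0157 in Scr. Its share was higher in each knockdown library than in any scrambled one, and still under 1%. Cdh10 and Cdh6, other classical cadherins described below, are not in this sum. Cdh10 was at 87.4 CPM in miR-27a KD and 67.9 CPM in Scr. Cdh6 was at 33.5 CPM in miR-27a KD and 40.9 CPM in Scr. The shares are thus of the summed genes and not of all classical cadherin mRNA. These shares are descriptions with no test, because they combine members.

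Beta-catenin (Ctnnb1, chromosome 9, 120929216 to 120960507), the link from cadherin tails to alpha-catenin and the effector of Wnt signalling, had the highest level per transcript length of all members. It was at 2100.5, 2077, 2098 and 2066 CPM in miR-27a KD replicates 1 to 4, against 2105, 2157, 2128 and 2113 CPM in Scr replicates 1 to 4. The groups did not overlap, though less than 5 CPM lay between them. The means of 2085 ± 16.6 CPM in miR-27a KD and 2126 ± 22.9 CPM in Scr (SD, n = 4 each) differed by 1.02-fold (log2 fold change −0.03, SE 0.0180, adjusted p = 0.215), and the test did not call it. Without Scr replicate 2 the log2 fold change was −0.02 (adjusted p = 0.279). The 674 tested genes of chromosome 9 had a median of −0.09, and with scaling on those genes, chosen after seeing the data, the log2 fold change of Ctnnb1 was 0.060 (adjusted p = 0.0107), of the opposite sign. Ctnnb1 shares 759 exon bases with Ulk4 on the opposite strand, whose own counts were 6 to 18 per library in miR-27a KD and 7 to 19 in Scr.

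Plakoglobin (Jup, chromosome 11, 100368958 to 100397763), which can take the place of beta-catenin on cadherins and also sits in desmosomes, was lower in miR-27a KD. It was at 277, 266, 273 and 266 CPM in miR-27a KD replicates 1 to 4, against 316, 291, 306 and 299.7 CPM in Scr replicates 1 to 4. The highest knockdown library lay below the lowest scrambled one, Scr replicate 2. The means of 270.5 ± 5.75 CPM in miR-27a KD and 303 ± 10.5 CPM in Scr (SD, n = 4 each) gave a log2 fold change of −0.17 (1.12-fold lower, SE 0.0269, adjusted p = 2.49e-05). The log2 fold change was −0.18 without Scr replicate 2 and −0.11 with scaling on the 967 tested chromosome 11 genes (adjusted p = 0.00186), whose median was −0.06. The Ctnnb1 to Jup ratio of CPM per kb was 6.82 ± 0.0954 in miR-27a KD and 6.21 ± 0.272 in Scr, with no overlap.

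Alpha-catenin (Ctnna1, chromosome 18, 35118859 to 35254779), which joins the complex to actin, fell by a small amount. It was at 954, 958, 946 and 937 CPM in miR-27a KD replicates 1 to 4, against 978, 999.8, 1007 and 1003 CPM in Scr replicates 1 to 4. All knockdown libraries were below all scrambled ones. The means of 949 ± 9.73 CPM in miR-27a KD and 997 ± 13.0 CPM in Scr (SD, n = 4 each) differed by 1.05-fold (log2 fold change −0.07, SE 0.0198, adjusted p = 0.00495), and without Scr replicate 2 the log2 fold change was −0.07 (adjusted p = 0.000665). That is close to the chromosome 18 median of −0.09, and with scaling on chromosome 18 genes, chosen after seeing the data, the log2 fold change was 0.012 (adjusted p = 0.640), so that the call was lost.

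p120-catenin (Ctnnd1, chromosome 2, 84600071 to 84650765), which steadies cadherins at the membrane, was the catenin that rose. Its level was 766, 761, 758 and 753 CPM in miR-27a KD replicates 1 to 4, against 694, 652, 699 and 715 CPM in Scr replicates 1 to 4. The lowest Scr value was again that of replicate 2. The means of 759 ± 5.64 CPM in miR-27a KD and 690.1 ± 26.6 CPM in Scr (SD, n = 4 each) gave a 1.10-fold rise (log2 fold change 0.14, SE 0.0244, adjusted p = 6.90e-05). The log2 fold change was 0.11 without Scr replicate 2 (adjusted p = 4.26e-07) and 0.12 with scaling on the 919 tested chromosome 2 genes (adjusted p = 0.000612). Ctnnd1 shares 61.2% of its exon bases with Gm28635, a gene annotated on the same strand, and how such reads were assigned is not given in the sources used here.

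**Figure D3:**
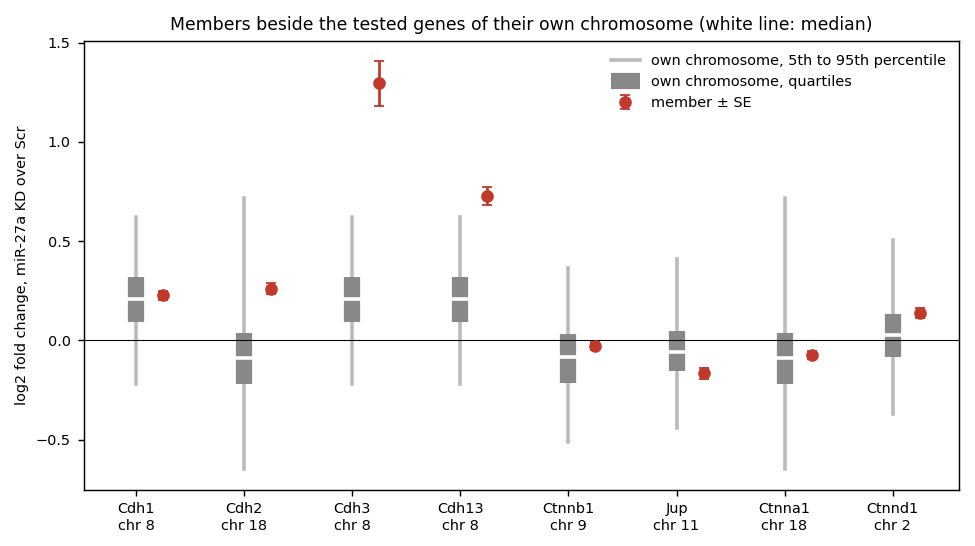
Log2 fold change, miR-27a KD over Scr (vertical axis), of the 8 tested members with their SE, each beside the tested genes of its own chromosome (quartiles, 5th to 95th percentile and median). Cdh1 and Ctnna1 lie within 0.03 of their chromosome's median, while Cdh2, Cdh3 and Cdh13 lie 0.35, 1.09 and 0.52 above it. Ctnnd1 and Ctnnb1 lie 0.11 and 0.06 above their chromosome's median, and Jup lies 0.11 below its own.

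The balance between cadherin and catenin mRNA differed between the lines. Per kb, Ctnnb1 stood at 2.62, 2.58, 2.59 and 2.56 times the sum of Cdh1, Cdh2 and Cdh3 in miR-27a KD replicates 1 to 4, against 3.03, 3.26, 3.06 and 3.09 times in Scr replicates 1 to 4. The groups did not overlap, and Scr replicate 2 had the highest ratio. With Jup added to Ctnnb1 the ratio was 2.97 ± 0.0322 in miR-27a KD and 3.61 ± 0.102 in Scr (SD, n = 4 each). Ctnnd1 stood at 0.536 ± 0.00526 times the same cadherin sum in miR-27a KD and 0.575 ± 0.0142 times in Scr, and Ctnna1 stood at 0.442 ± 0.00439 times Ctnnb1 in miR-27a KD and 0.455 ± 0.00564 times in Scr. The cadherin sum leaves out Cdh10 and Cdh6, described below. These ratios were chosen after the members' values were seen, they combine members and they have no test. Cdh1, whose log2 fold change was 0.026 with chromosome 8 scaling, makes up most of the cadherin sum, and the part of the chromosome-wide shift in these ratios was not tested.

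**Figure D4:**
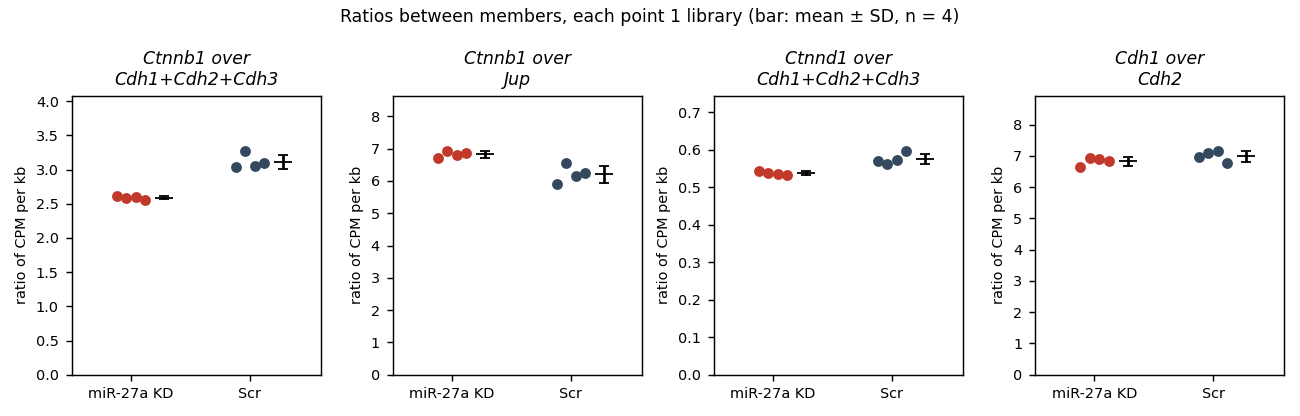
Ratios of CPM per kb between members (vertical axes, from 0), 1 point per library of miR-27a KD (left) and Scr (right), with mean and SD. Ctnnb1 per summed Cdh1, Cdh2 and Cdh3 is lower, at 2.59 ± 0.0238 in miR-27a KD and 3.11 ± 0.106 in Scr. Ctnnb1 per Jup is higher, and Cdh1 per Cdh2 overlaps between the groups.

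Set beside the seed matches, the 3 tested members with a match of 7 or 8 bases (Cdh1, Cdh3 and Ctnnd1) all rose. Of the 5 tested without one, Cdh2 and Cdh13 rose, Jup and Ctnna1 fell and Ctnnb1 did not pass the test. Cdh1, Cdh3 and Cdh13 lie on chromosome 8, where 62.5% of tested genes were called higher. With chromosome 8 scaling Cdh1 lost its call, while Cdh3 and Cdh13 kept theirs. Among all tested genes with an annotated 3′ UTR, 26.1% of the 3354 with such a match were called higher and 24.2% lower, and 23.3% of the 7996 without were called higher and 24.9% lower. The part of the matches in the members' values was not tested.

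By likeness of pattern over the 8 libraries, the genes closest to Cdh1 in log2 CPM were Ankrd11 (Pearson's r = 0.998), Paqr8 (r = 0.997) and D8Ertd738e (r = 0.995), the first and the third of them on chromosome 8. Those closest to Cdh3 were Rplp0 (r = 0.999), Slc7a6 (r = 0.997) and Ndnl2 (r = 0.997), of which Slc7a6 lies on chromosome 8, near Cdh3. The libraries fall into 2 groups, so each r mainly restates the difference between the lines, and 125 and 139 of 9882 genes exceeded 0.98 for Cdh1 and Cdh3. Rplp0 has many pseudogene copies and is uncertain.

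Most other classical cadherins had few or no reads. Of 15 listed, 8 had 0 counts in all libraries and 4 were tested, of which Cdh10 rose, Cdh6 fell and 2 did neither. Cdh10 had 87.4 ± 1.83 CPM in miR-27a KD and 67.9 ± 4.12 CPM in Scr (1.29-fold higher, adjusted p = 8.67e-08). Cdh6, a cadherin of kidney development, had 33.5 ± 1.70 CPM in miR-27a KD and 40.9 ± 0.876 CPM in Scr (1.22-fold lower, adjusted p = 2.82e-05). The endothelial cadherin Cdh5 had 5 counts in miR-27a KD replicate 1 and 0 in every other library.

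Among the wider cadherin superfamily 7 of 13 tested genes rose and 4 fell, where 23.8% of all tested genes were called higher and 24.1% lower. The list's median log2 fold change was 0.30. Cdh17, the liver-intestine cadherin, was the highest of those that fell, 1.27-fold, to 913 ± 12.1 CPM in miR-27a KD against 1163 ± 32.1 CPM in Scr (adjusted p = 1.28e-11). Cdhr2, a protocadherin of brush border microvilli, rose 1.40-fold, to 116 ± 1.06 CPM in miR-27a KD against 83.0 ± 3.65 CPM in Scr. The giant cadherins Fat2 and Fat1 rose 2.23-fold and 1.23-fold, Fat1 being a chromosome 8 gene with 1116 ± 28.5 CPM in miR-27a KD against 906 ± 122 CPM in Scr. Fat1 was at 727 CPM in Scr replicate 2, the library that stood apart, and at 932 to 986 CPM in the other Scr libraries. Its log2 fold change over all libraries was 0.30, where the chromosome 8 median was 0.21. Celsr1, a planar polarity cadherin, fell 1.33-fold and Pcdh7, a protocadherin that shares 21.1% of its exon bases with another gene, 1.13-fold, while Clstn1, a calsyntenin, stood at 8.47 ± 1.28 CPM in miR-27a KD and 8.51 ± 1.23 CPM in Scr (adjusted p = 0.984).

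Of 6 tested genes for other catenins and armadillo proteins, 3 rose, 1 fell and 2 did not pass the test, with a median of 0.15, where 47.9% of all tested genes passed. Ctnnal1, an alpha-catenin relative, had 31.3 ± 1.11 CPM in miR-27a KD and 26.8 ± 2.41 CPM in Scr (1.17-fold higher, adjusted p = 0.00357), and Ctnnbl1, a splicing-associated armadillo protein, was 1.08-fold higher with overlapping libraries. Pkp4, a p120 relative, fell 1.07-fold, and Armc8 stood at 46.0 ± 0.897 CPM in miR-27a KD and 46.9 ± 2.29 CPM in Scr (adjusted p = 0.630).

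In the desmosome, where Jup also sits, 6 of 9 tested genes fell, 2 rose and 1 did neither, with a median of −0.19. Of all tested genes 24.1% were called lower and 23.8% higher. Ppl, periplakin, fell 1.57-fold to 121 ± 1.66 CPM in miR-27a KD, against 190.2 ± 4.15 CPM in Scr (adjusted p = 7.51e-15). Evpl, envoplakin, fell by 0.44 on the log2 scale and Pkp2, a plakophilin, fell by 0.36. Dsp, desmoplakin, which anchors keratin filaments, rose 1.32-fold to 264 ± 2.57 CPM in miR-27a KD, against 201 ± 13.7 CPM in Scr (adjusted p = 3.29e-09), and Pkp3 stood at 10.5 ± 0.610 CPM in miR-27a KD and 11.6 ± 2.55 CPM in Scr (adjusted p = 0.325).

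Of 24 tested nectins and actin linkers of the junction 11 rose and 7 fell, with a median of 0.06, beside 23.8% higher and 24.1% lower over all tested genes. At a mean of 50 CPM or more, 58.1% of tested genes were called in either direction. Nectin-1, listed as Pvrl1, fell 1.87-fold to 9.28 ± 0.816 CPM in miR-27a KD, against 17.3 ± 1.65 CPM in Scr (adjusted p = 9.47e-09), while its partner nectin-3, listed as Pvrl3, rose 1.42-fold to 47.0 ± 1.66 CPM in miR-27a KD against 33.1 ± 0.742 CPM in Scr. The actin linkers zyxin (Zyx) and vinculin (Vcl, which binds alpha-catenin under tension) fell 1.51-fold and 1.26-fold, Vcl to 449.6 ± 4.04 CPM in miR-27a KD against 568 ± 4.34 CPM in Scr. Camsap3, a microtubule minus-end protein of epithelial junctions that lies on chromosome 8, rose 1.85-fold, and Ablim1, an actin-binding LIM protein, 1.23-fold. Actn4, an alpha-actinin, was at 1083 ± 4.76 CPM in miR-27a KD and 1088 ± 35.1 CPM in Scr (adjusted p = 0.851). Vcl shares 25.5% of its exon bases with Ap3m1 and is reported as uncertain.

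Of 25 tested genes that phosphorylate, dephosphorylate, cut or turn over cadherins, 15 rose and 2 fell, with a median of 0.13. The share called over all tested genes was 23.8% higher and 24.1% lower. Adam10, the sheddase of E- and N-cadherin, fell the most, 175 ± 1.76 CPM in miR-27a KD against 244 ± 6.87 CPM in Scr (1.40-fold lower, adjusted p = 1.02e-12), and Adam15, which shares 20.6% of its exon bases with another gene, fell 1.19-fold. The receptor phosphatases Ptprf and Ptprb rose 1.44-fold and 1.53-fold, Ptprf to 269 ± 4.05 CPM in miR-27a KD against 187 ± 6.53 CPM in Scr (adjusted p = 4.61e-13), and the phosphatase Ptpn11 rose 1.19-fold. Ptprk, another receptor phosphatase, stood at 176 ± 3.84 CPM in miR-27a KD and 171 ± 1.03 CPM in Scr (adjusted p = 0.173).

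In the beta-catenin destruction complex 6 of 17 tested genes rose and 4 fell, with a median of −0.00273, again beside 23.8% higher and 24.1% lower of all tested genes. Csnk1a1, the priming kinase, fell 1.14-fold to 269 ± 3.21 CPM in miR-27a KD, against 307 ± 4.37 CPM in Scr (adjusted p = 6.03e-07), Gsk3a 1.10-fold and Fbxw11, an F-box protein that recognises phosphorylated beta-catenin, 1.06-fold. Siah1a, a ubiquitin ligase with near-identical copies, rose 1.43-fold, Csnk1e, a casein kinase of the Wnt pathway, 1.18-fold and Tnks, tankyrase, 1.16-fold, with Siah1a and Tnks on chromosome 8. Ppp2ca, a phosphatase subunit, was at 302 ± 5.84 CPM in miR-27a KD and 311 ± 7.07 CPM in Scr (adjusted p = 0.171). Gsk3a and Ppp2ca share 28.3% and 39.9% of their exon bases with other genes. Axin2, a scaffold and a target gene of beta-catenin, was below the level set for naming and is named only because its values had been seen, at 1.06 ± 0.419 CPM in miR-27a KD and 3.17 ± 0.849 CPM in Scr (log2 fold change −1.57, adjusted p = 1.22e-05).

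Of 9 tested repressors of the Cdh1 gene 3 rose and 2 fell, near the 23.8% higher and 24.1% lower of all tested genes. Zeb1, a zinc-finger repressor of Cdh1, rose 1.15-fold to 72.4 ± 1.81 CPM in miR-27a KD, against 63.2 ± 1.83 CPM in Scr (adjusted p = 0.000113), with the corepressor Ctbp1 1.12-fold and the E-protein Tcf3 1.05-fold higher, these last with overlapping libraries. Snai2, the repressor Slug, fell 1.45-fold to 5.96 ± 1.03 CPM in miR-27a KD against 8.58 ± 0.842 CPM in Scr, the methyltransferase Ezh2 fell 1.08-fold, and Ctbp2 stood at 143 ± 4.10 CPM in miR-27a KD and 144 ± 3.62 CPM in Scr (adjusted p = 0.865). Of 9 tested epithelial factors 3 also rose and 2 fell, with Klf4 1.74-fold higher (72.8 ± 0.863 CPM in miR-27a KD against 41.9 ± 7.01 CPM in Scr), Foxa1 1.54-fold and the splicing factor Esrp2 1.10-fold higher, Elf3 1.07-fold lower, and Klf5 at 125 ± 3.64 CPM in miR-27a KD and 125 ± 4.87 CPM in Scr (adjusted p = 0.977). Esrp2 lies on chromosome 8, and its log2 fold change of 0.14 was below the median of 0.21 there. The epithelial factors Grhl2 and Esrp1, chosen after their values were seen, had at most 4 counts in any library beside the high Cdh1 level, and Ovol1 had 0 in all.

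**Figure D5:**
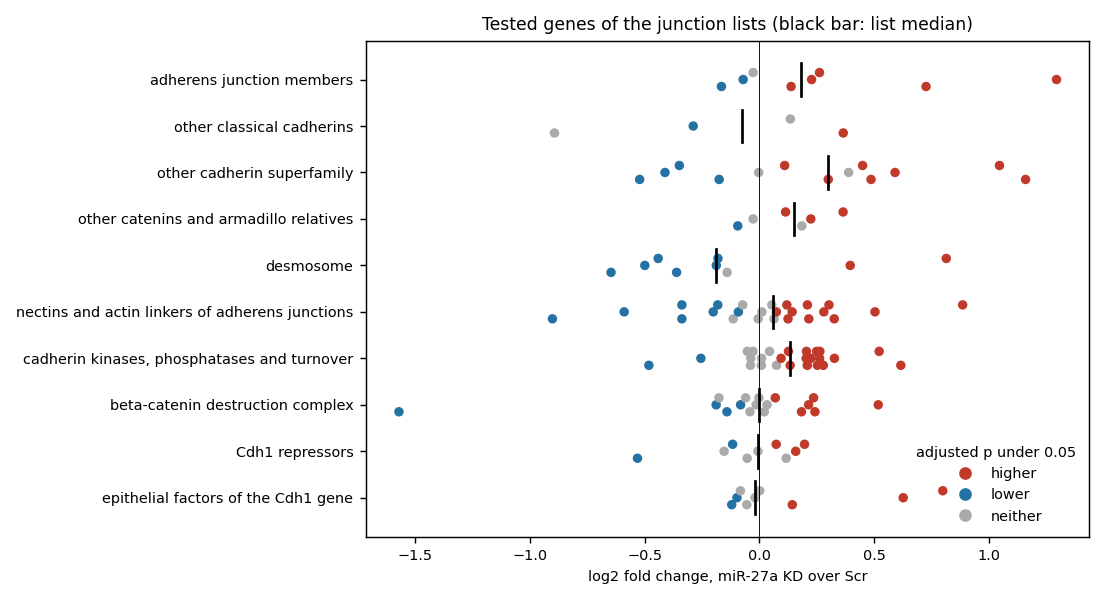
Log2 fold change, miR-27a KD over Scr (horizontal axis), of every tested gene in the member list and the 9 lists around it, coloured by call at adjusted p under 0.05, with the list median as a black bar. The medians run from −0.19 for the desmosome to 0.30 for the wider cadherin superfamily, and every list holds genes called in both directions.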

How the data were processed

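The authors deposited raw read counts per gene symbol, 1 column per library, per the file headers. The submitters' processing notes list STAR, Bowtie, bcl2fastq 2.20, R 4.2.1, DESeq2 1.36.0 and the mm10 build, without saying what each did. The labels' protocols give a stranded mRNA kit, RNA integrity of 7 or more and paired reads of 59 bases. How reads were counted (tool, gene models, strand) is not given in the sources used here, so overlapping genes cannot be told apart. Exons of 21 of the 59 members and list genes named by the rule below overlap other annotated genes, which are protein-coding for 10. The genes named for likeness to Cdh1 or Cdh3 were not checked for overlap.

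The counts were analysed as deposited in R 4.3.3 with edgeR 4.0.16 (filterByExpr with minimum count 10 and total 15, TMM scaling, glmQLFit and glmQLFTest on group, all 8 libraries, Benjamini-Hochberg adjusted p under 0.05 over 11797 genes). SEs are the log2 fold change over the root of its F statistic. Symbols were matched to GENCODE M21, 23313 by their current and 666 by an older name, leaving 440 that had no single match. Cadherin promoter and protein sequences were not used here. Same-numbered libraries did not pair (correlations of their deviations from group means −0.035 to 0.0201). The test was checked on simulated counts.

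The members and lists were chosen with earlier results of these data known. Named in the text are all members and, from each list, up to 3 called genes per direction with the smallest adjusted p and a mean of at least 5 CPM, and the uncalled gene with the highest mean, plus the 3 genes most like Cdh1 and the 3 most like Cdh3. A gene that the rule names is not reported here. Alternatives were other scalings (DESeq2 1.42.0 size factors, upper quartile, own chromosome), filters and tools (DESeq2, limma-voom in limma 3.58.1), the replicate block and leaving out each library. Scaling on chromosomes other than 8 and the union of exons as length were added after seeing the data.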

Additional observations from a re-analysis of the deposited data

Results flagged for a closer look

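The check covered 118 groups of 4 libraries, 1 for each member and each gene named from a list in each line. In 2 of them a library's distance from its nearest neighbour was large relative to the whole range of the group. That is fewer than the 1 in 20 that chance gives. The groups share the same libraries, and 0 of the flagged values were of Scr replicate 2, the library that stood apart over all genes. A low count of flags thus does not show that no library stood apart. Cdh11 was at 0.104 CPM in miR-27a KD replicate 2, against 0.0456 to 0.0512 CPM in the other 3, a difference of 2 counts against 1. Ablim1 was at 126 CPM in Scr replicate 1, against 117 to 118 CPM in the other Scr libraries.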

How the results depend on the processing

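The calls and directions of the 8 tested members were kept under 15 alternatives each: DESeq2 size factors, upper-quartile factors, no filter, a stricter filter, the replicate block, DESeq2, limma-voom and leaving out each library. The log2 fold change ran over 0.21 to 0.25 for Cdh1, 0.24 to 0.28 for Cdh2, 1.27 to 1.34 for Cdh3, 0.70 to 0.76 for Cdh13, 0.11 to 0.16 for Ctnnd1, −0.18 to −0.14 for Jup, −0.08 to −0.05 for Ctnna1 and −0.03 to −0.01 for Ctnnb1. The replicate block gave 2762 genes higher and 2771 lower, against 2804 and 2841 without it, and changed no member's call (log2 fold change 0.23 for Cdh1 with the block). Own-chromosome scaling, which by construction sets the median gene of that chromosome near 0, gave 0.026 for Cdh1 (adjusted p = 0.272), 0.012 for Ctnna1 (adjusted p = 0.640) and 0.060 for Ctnnb1 (adjusted p = 0.0107), the last 2 with their signs turned. Genes called ran from 2532 to 3002 higher and 2575 to 3002 lower when 1 library was left out, and list counts stayed within 1.5 times. Dividing by the union of exons was chosen after seeing the data. With it Cdh1 made up 90.9% of the summed level of Cdh1, Cdh2, Cdh3 and Cdh11 in miR-27a KD and 91.5% in Scr. Depth limits Cdh11, with at most 4 counts per library and no fold change, and the cause of the differences between scalings was not tested.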
